A study of Mus musculus with 2 samples.

Results

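The let-7 microRNA family was examined in the heart of the mouse embryo. Its genes were taken as all rows of the count tables whose Ensembl identifier carries, in the GENCODE M21 annotation of the mouse genome, a symbol that starts with Mirlet7, or the symbol Mir98. This rule found 10 of 1973 listed genes: Mirlet7a-1, Mirlet7a-2, Mirlet7b, Mirlet7c-1, Mirlet7c-2, Mirlet7d, Mirlet7f-2, Mirlet7g, Mirlet7i and Mir98. Small RNA was sequenced from total RNA of hearts of healthy B6NCrl embryos at embryonic day 16.5, with male and female embryos pooled and no treatment or genetic change given by the labels. The 2 libraries are labelled biological replicates of a single group. Replicate 2 pooled the hearts of 41 embryos; for replicate 1 the labels say only that hearts were pooled.

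let-7 miRNAs are about 22 bases long and repress messenger RNAs that pair with their seed, bases 2 to 8. Each is cut from a hairpin, and the 5p product, from the 5′ side, is the main one for this family. The family was first found in the worm Caenorhabditis elegans, where let-7 times the passage from larval to adult cells. In mammals the mature miRNAs rise as cells differentiate and repress growth genes such as Hmga2 and the Ras genes. The RNA-binding protein LIN28 blocks maturation of let-7 in early embryos and stem cells by binding the loop of the precursor. In human cardiomyocytes made from stem cells, let-7 promotes maturation.

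The 5p sequences of the family are printed first because they decide which reads can be given to 1 gene. They come from RefSeq (build GRCm38.p6, the assembly that mm10 denotes), read 5′ to 3′, with the seed in capitals. All 10 hairpins were in that table, and 9 of 10 genes had a 5p entry of their own; the sequence of let-7a-5p, entered for Mirlet7a-1, also stands in the hairpin of Mirlet7a-2.
let-7a-5p (Mirlet7a-1 and Mirlet7a-2): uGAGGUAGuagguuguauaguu
let-7c-5p (Mirlet7c-1 and Mirlet7c-2): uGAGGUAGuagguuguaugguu
let-7f-5p (Mirlet7f-1 and Mirlet7f-2): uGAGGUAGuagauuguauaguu
let-7b-5p (Mirlet7b): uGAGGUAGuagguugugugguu
let-7d-5p (Mirlet7d): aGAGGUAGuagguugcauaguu
let-7e-5p (Mirlet7e): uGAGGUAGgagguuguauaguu
let-7g-5p (Mirlet7g): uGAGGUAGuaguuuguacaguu
let-7i-5p (Mirlet7i): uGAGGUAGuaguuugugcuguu
miR-98-5p (Mir98): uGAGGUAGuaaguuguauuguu
All 9 sequences share the seed. With positions counted from 1 at the 5′ end, let-7c-5p differs from let-7a-5p by A19G, let-7f-5p by G12A and let-7e-5p by U9G. The differences of let-7b-5p from let-7a-5p are A17G and A19G, those of let-7d-5p U1A and U16C, those of let-7g-5p G12U and U18C, and those of miR-98-5p G11A and A19U. let-7i-5p is the farthest of them, with G12U, A17G, U18C and A19U.

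The libraries held 15207730 (replicate 1) and 12885555 (replicate 2) reads, of which 6473482 and 5841568 were sense counts at miRNA genes. Levels are given as CPM, counts per 1000000 of these sense counts. Reads matching several places, 4482590 and 4105896, were counted in no gene. Confidence intervals (95%) cover counting error only. They treat reads as independent, but PCR copies are not independent molecules, so the intervals may be too narrow. In the check of the tissue label, the cardiomyocyte miRNAs Mir208a, Mir208b and Mir499 summed to 67703 and 67120 CPM in replicates 1 and 2. The 5 listed neuronal markers summed to 2.78 and 0.171 CPM, with Mir124a-3 and Mir9-2 at 0 in both libraries, and the liver marker Mir122 stood at 160 and 161 CPM. The neuronal markers are copies of Mir124a and of Mir9, and a read matching several copies was counted in none. Their low sums are therefore not levels of these miRNAs and do not show that neuronal RNA was absent. In whole hearts, a lower level cannot be told apart between fewer cells of a type and less RNA per cell.

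The 10 let-7 genes held 895623 sense counts in replicate 1 and 781287 in replicate 2. That was 13.8% (Wilson interval 13.81% to 13.86%) and 13.4% (13.35% to 13.40%), with a mean of 13.6% ± 0.33 (SD, n = 2). All 10 genes passed the detection limit of 10 counts in each library, as did 365 of all 1973 listed genes, let-7 included. The share rests on reads that match 1 place. If none of the reads matching several places came from let-7, its share of those reads and sense counts together would be 8.17% and 7.85%. If all of them did, it would be 49.1% in both libraries, so this combined share of the 10 genes lies between these bounds.

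Mirlet7i and Mirlet7g together made up 79.6% and 81.2% of the family's counts. For Mirlet7i (ENSMUSG00000065406) the levels were 55451 CPM (replicate 1) and 58437 CPM (replicate 2). Mirlet7g (ENSMUSG00000065440) stood at 54740 and 50101 CPM. The ranges of these genes over the libraries did not overlap, although Mirlet7i exceeded Mirlet7g only 1.01-fold in replicate 1 (exact interval 1.008 to 1.018) and 1.17-fold in replicate 2 (1.161 to 1.172). Their 5p sequences differ by A17G and A19U, counted from let-7g-5p to let-7i-5p. Among all listed genes they ranked 7 and 8 by mean CPM. Mir208b, next above Mirlet7i, overlapped it in range at 58261 ± 1172 CPM (SD, n = 2), while Mir26b, next below Mirlet7g, was apart from it at 32861 ± 2274 CPM.

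Mirlet7d (ENSMUSG00000065453) followed at 16217 and 12920 CPM, 3.38-fold and 3.88-fold below Mirlet7g. Its mean rank was 16, and its range overlapped those of both rank neighbours, Mir99b and Mir21a. Mir98 (ENSMUSG00000065536) stood at 5858 and 5509 CPM, between Mir100 and Mir411, and overlapped both. Mirlet7b (ENSMUSG00000065564) stood at 3186 and 3942 CPM, between Mir127 and Mir744, and overlapped both. Among the let-7 genes themselves, none of these 5 overlapped the next in order. Mirlet7d held 10.7% ± 1.5 of the family's counts, Mir98 4.18% ± 0.081 and Mirlet7b 2.63% ± 0.46 (SD, n = 2).

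**Figure D1:**
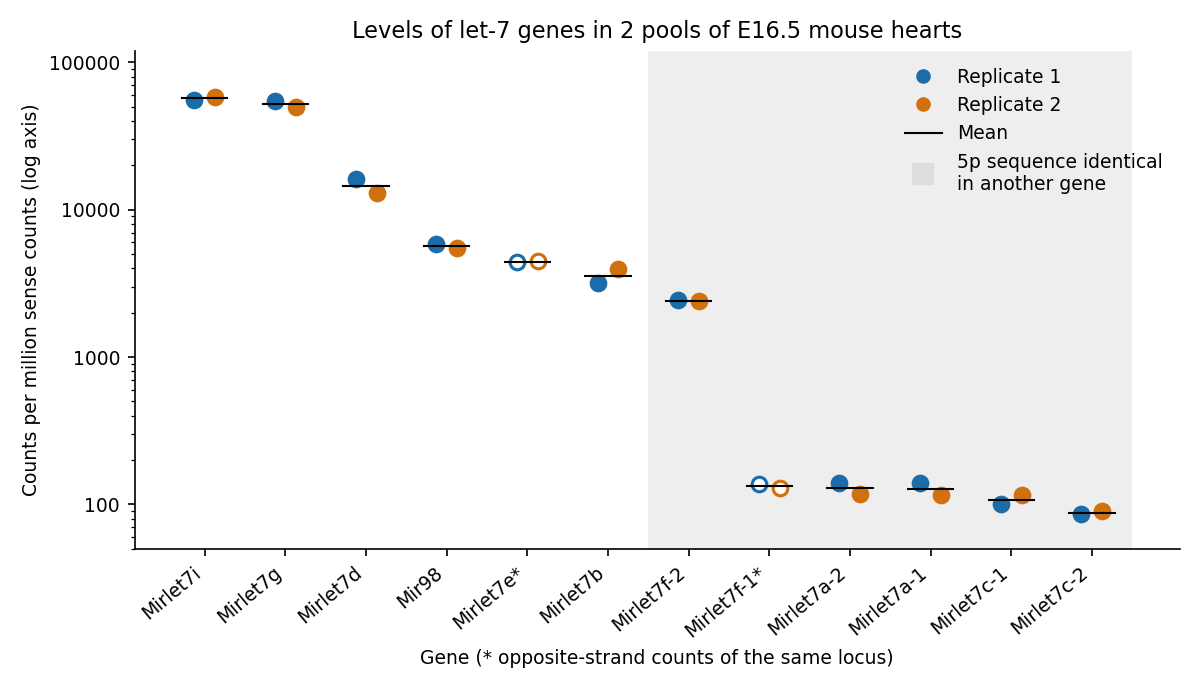
Level of each let-7 gene in CPM (log axis); points are the libraries, lines their means, open points the opposite-strand counts at the loci of Mirlet7e and Mirlet7f-1, and grey shading marks genes whose 5p sequence is identical in another gene. The unshaded genes lie between 3186 and 58437 CPM, and the shaded genes at or below 2435 CPM.

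The other 5 listed genes carry a 5p sequence that is identical in another gene. Mirlet7f-2 (ENSMUSG00000065602) stood at 2435 and 2401 CPM. Mirlet7a-2 (ENSMUSG00000092770) stood at 140 and 117 CPM and Mirlet7a-1 (ENSMUSG00000065421) at 140 and 115 CPM. Mirlet7c-1 (ENSMUSG00000065557) stood at 100.3 and 115 CPM, and Mirlet7c-2 (ENSMUSG00000065608) at 85.7 and 89.7 CPM. Mirlet7f-2 was 17.4-fold and 20.6-fold above Mirlet7a-2. The ranges of Mirlet7a-2 and Mirlet7a-1 overlapped, as did those of Mirlet7a-1 and Mirlet7c-1, while Mirlet7c-1 and Mirlet7c-2 did not overlap. Together these 5 genes held 2.10% and 2.12% of the family's counts, and the 5 genes with a 5p sequence of their own 97.9% in both libraries. The counts of the 5 genes with a shared 5p sequence leave out every read that could belong to both copies, so they are not levels of let-7a, let-7c or let-7f.

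The shared stretches differ in length. From the first base of the 5p product, the hairpins of Mirlet7a-1 and Mirlet7a-2 are identical for 23 bases and first differ by U24A, from Mirlet7a-1 to Mirlet7a-2. Those of Mirlet7c-1 and Mirlet7c-2 are also identical for 23 bases and first differ by A24U, from Mirlet7c-1 to Mirlet7c-2. Those of Mirlet7f-1 and Mirlet7f-2 are identical for 22 bases and first differ by G23U, from Mirlet7f-1 to Mirlet7f-2, so a read of the 22 bases alone matches both hairpins, and a read with the next base matches 1 of them. Matches outside annotated miRNA hairpins were not analysed here. Mirlet7i, Mirlet7g and Mirlet7b share 16 bases with their nearest relative before the first difference, Mir98 10, and Mirlet7d 0. The longest run that Mirlet7d shares with the hairpin of any other locus is 14 bases, against 26 for Mirlet7a-1, and the 5p sequences of Mirlet7g and Mirlet7i each differ from the nearest of the family in 2 bases. How many mismatches the authors' alignment allowed was not given in the sources used here.

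**Figure D2:**
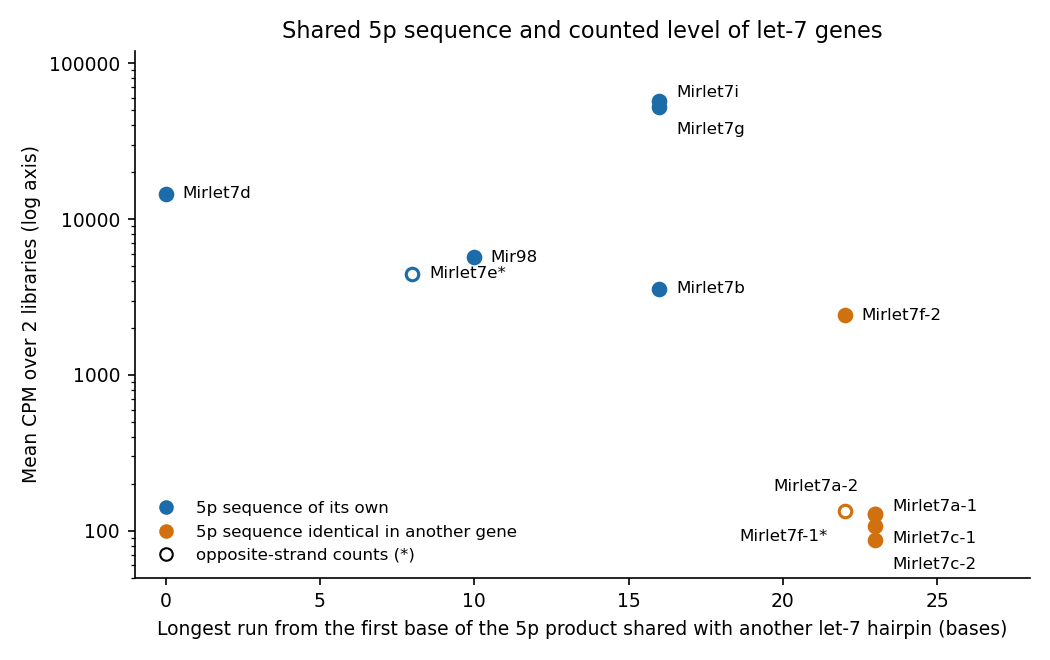
Mean level over the libraries (CPM, log axis) against the number of bases, from the start of the 5p product, that a let-7 hairpin shares with its closest relative. The 4 Mirlet7a and Mirlet7c genes, with 23 shared bases, lie at or below 128 CPM, and genes with at most 16 shared bases at or above 3564 CPM.

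On the 3′ side the copies are less alike. The 3p products, which form the minor strand, are shown because they can tell copies apart that the 5p products cannot; no bases are marked here.
let-7a-1-3p (Mirlet7a-1): cuauacaaucuacugucuuucc
let-7c-2-3p (Mirlet7c-2): cuauacaaucuacugucuuucc
let-7a-2-3p (Mirlet7a-2): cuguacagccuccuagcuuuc
let-7c-1-3p (Mirlet7c-1): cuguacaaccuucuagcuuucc
let-7f-1-3p (Mirlet7f-1): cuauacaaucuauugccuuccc
let-7f-2-3p (Mirlet7f-2): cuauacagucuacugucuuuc
The 3p products of Mirlet7a-1 and Mirlet7c-2 are identical to each other, so both annotated products of these genes occur in another hairpin. Those of Mirlet7a-2, Mirlet7c-1, Mirlet7f-1 and Mirlet7f-2 were found in no other miRNA hairpin. The deposited counts are per gene and do not separate the arms. Among all detected genes with a RefSeq mature sequence in their hairpin, the median was 60.7 CPM for the 46 with a mature sequence that occurs in another hairpin and 132 CPM for the 284 without. The lower quartiles stood the other way, at 22.6 and 12.5 CPM. Of the first group 4 (8.70%) reached 1000 CPM, 1 of them Mirlet7f-2, and of the second 74 (26.1%).

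2 further let-7 genes, Mirlet7e and Mirlet7f-1, had no row of their own, but a listed gene covers each on the opposite strand. Gm25927, opposite Mirlet7e, had 0 sense counts and 28520 and 26199 opposite-strand counts, which equals 4406 and 4485 CPM of the sense total. Gm24111, opposite Mirlet7f-1, had 2 sense counts in each library and 896 and 754 opposite-strand counts, or 138 and 129 CPM. Read as let-7 counts, those at the Mirlet7e locus would stand between Mir98 and Mirlet7b. Those at the Mirlet7f-1 locus would lie 17.6-fold and 18.6-fold below Mirlet7f-2, within the range of Mirlet7a-1. With both loci added, a step chosen after seeing the data, the family share was 14.0%. Of the 10 listed genes, Mirlet7b had 19 and 10 opposite-strand counts and Mir98 0 and 2, and the others had 0.

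4 listed genes outside the family rule resemble let-7. Mir7j (RefSeq let-7j) had 653 and 557 counts (101 and 95.4 CPM).
let-7j (Mir7j, seed in capitals): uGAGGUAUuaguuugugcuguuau
This sequence differs from let-7i-5p over its 22 bases by G8U alone, which changes the seed, and Mirlet7i exceeded Mir7j 550-fold and 613-fold. Mir7k (RefSeq let-7k) and Mir1961 have the let-7 seed but had 0 counts in both libraries, which allows up to 3 counts, or 0.463 and 0.514 CPM. Mir202, whose 3p product shares part of the seed, had 11 and 1 counts.

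The family lies at several sites in the mm10 genome, in coding and noncoding hosts. Mirlet7i (chr10:122985640-122985724, minus strand) overlaps an exon of the transcribed pseudogene D630033A02Rik and has no other miRNA gene of its strand within 10000 bases. Mirlet7g (chr9:106178840-106178927, plus strand) is intronic in Wdr82, which encodes a subunit of a histone H3 lysine methyltransferase complex. Mirlet7g also has no such neighbour; Mir135a-1, on the same strand, lies 24626 bases away and had 10 and 2 counts. So the let-7 genes that were highest by these counts were both without a close miRNA neighbour. The counts leave out reads matching several places, and the order of the family with those reads included is not known.

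Mirlet7d (chr13:48536012-48536114, minus strand) and Mirlet7a-1 (chr13:48538179-48538272, minus strand) are exonic in the noncoding gene 6720427I07Rik, with Mirlet7f-1 between them. Mirlet7d exceeded Mirlet7a-1 115-fold in replicate 1 (exact interval 108 to 123) and 112-fold in replicate 2 (104 to 122), and the intervals overlapped. Mirlet7a-1 was 1.01-fold above the opposite-strand counts at Mirlet7f-1 in replicate 1 and 1.12-fold below them in replicate 2. Both low genes of this cluster are the ones with a shared 5p sequence.

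Mirlet7c-2 (chr15:85706603-85706697, plus strand) and Mirlet7b (chr15:85707319-85707403, plus strand) are exonic in the noncoding gene Lncppara, 621 bases apart. Mirlet7b exceeded Mirlet7c-2 37.2-fold (34.2 to 40.5) and 44.0-fold (40.3 to 48.0). Mirlet7f-2 (chrX:151912346-151912428, plus strand) and Mir98 (chrX:151913214-151913321, plus strand) are intronic in Huwe1, which encodes a ubiquitin ligase, 785 bases apart. Mir98 exceeded Mirlet7f-2 2.41-fold (2.36 to 2.45) and 2.30-fold (2.25 to 2.34). Of the 3 pairs of listed let-7 neighbours this was the closest in counts, and its intervals did not overlap between the libraries. In all 3 pairs the count of the lower gene leaves out reads that match another copy. The ratios and their intervals are therefore not those of miRNA levels.

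3 more sites pair let-7 with the miR-99 and miR-100 genes and with the miR-125 genes, the mammalian relatives of the worm miRNA lin-4. Mirlet7c-1 (chr16:77599657-77599750, plus strand) is intronic in Mir99ahg, 656 bases after Mir99a. Mir99a stood at 58388 and 58838 CPM, 582-fold and 511-fold above Mirlet7c-1, while Mir125b-2, in the same host, was 4.67-fold and 4.28-fold above it. Mirlet7a-2 (chr9:41536716-41536811, plus strand) is intronic in the noncoding genes 3110039I08Rik and Gm49317, 5211 bases after Mir100. Mir100 stood at 5774 and 5631 CPM, 41.2-fold and 48.2-fold above Mirlet7a-2, and Mir125b-1 1.73-fold and 2.16-fold above it. Mir125b-1 and Mir125b-2 also have a mature sequence that occurs in another hairpin, and Mir99a and Mir100 have none.

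At the third of these sites, Mirlet7e (chr17:17830352-17830444, plus strand) lies in an intron of Spaca6, a gene for a sperm membrane protein, between Mir99b and Mir125a. The let-7 gene of this cluster has a 5p sequence of its own. Mir99b was 3.88-fold and 2.91-fold above the opposite-strand counts at Mirlet7e, and Mir125a was 1.58-fold and 1.70-fold below them. The intervals of both ratios did not overlap between the libraries. There were 7 ratios between a listed let-7 gene and a listed let-7, miR-100, miR-99 or miR-125 gene of its cluster. Of these, 6 were at least 2-fold in both libraries, and Mir125b-1 over Mirlet7a-2 was the exception. In all 7 the lower gene has a 5p sequence shared with another gene. Its count leaves out reads that match both copies, so these are not ratios of miRNA levels.

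**Figure D3:**
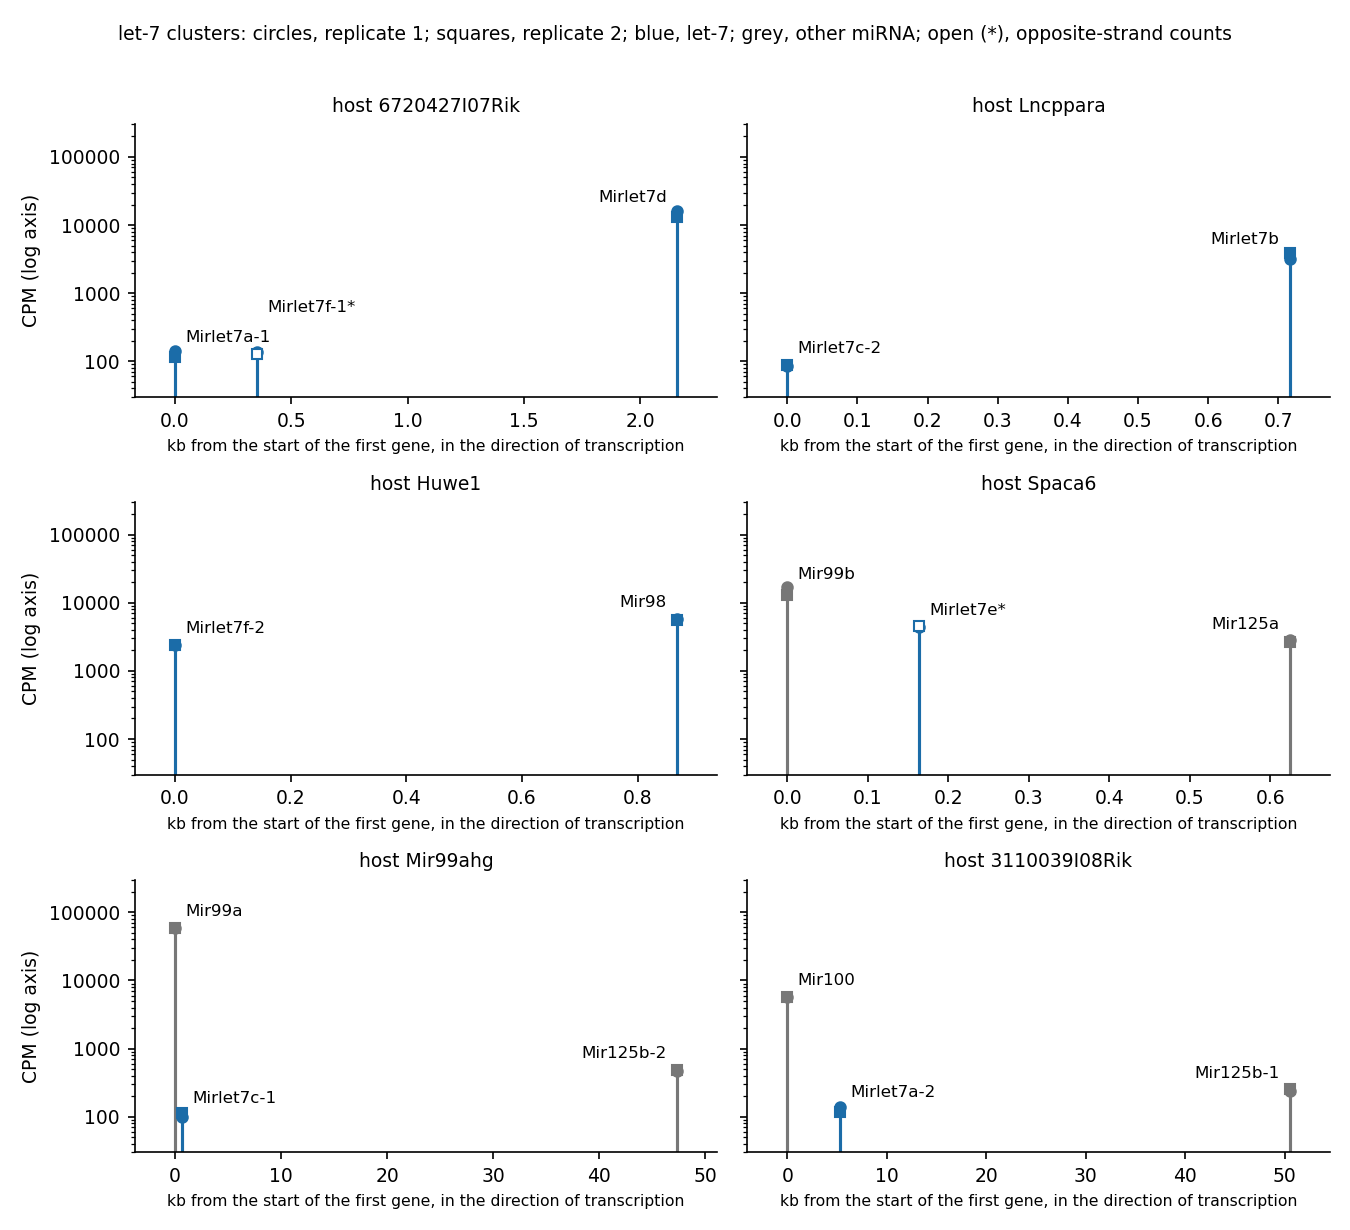
Level (CPM, log axis) of the miRNA genes of each let-7 cluster by distance from the first gene in the direction of transcription; circles are replicate 1, squares replicate 2, blue let-7, grey other miRNAs, and open symbols opposite-strand counts. Mirlet7a-1, Mirlet7a-2, Mirlet7c-1 and Mirlet7c-2 lie between 85.7 and 140.4 CPM, below every other filled gene of their clusters.

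The loops that join the arms of 9 listed let-7 hairpins were searched for GGAG, the letters that LIN28 binds in let-7 precursors. The search covered the bases between the annotated 5p and 3p products on the hairpin's own strand. Mirlet7a-2 has no 5p entry of its own, and its loop was taken from the end of the let-7a-5p sequence in its hairpin. The loops of the 3 highest genes are printed with GGAG in capitals, followed by the 2 of these loops without it.
Mirlet7i loop: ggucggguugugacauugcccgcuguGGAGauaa
Mirlet7g loop: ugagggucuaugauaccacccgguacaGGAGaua
Mirlet7d loop: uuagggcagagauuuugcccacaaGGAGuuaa
Mirlet7b loop: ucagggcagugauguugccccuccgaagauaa
Mirlet7c-2 loop: uugggcucugccccgcucugcgguaa
GGAG stood in 7 of the 9 loops, 3 or 4 bases before the 3p product in each. It was also present in the loops of Mirlet7e and Mirlet7f-1. Among all 53 hairpins with 2 annotated arms and a loop of 23 to 34 bases, the range of these loops, 14 (26.4%) held GGAG. These include the let-7 hairpins, so 26.4% overstates the share among other hairpins. Of the 9 genes, those without it stood at 3564 (Mirlet7b) and 87.7 (Mirlet7c-2) mean CPM, and those with it ranged from 108 to 56944 mean CPM, so the levels of these groups overlapped. A match of letters does not show binding.

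For each of the 365 detected genes, the split of its counts between the pools was tested against their TMM-scaled library sizes (exact binomial, two-sided), with Benjamini-Hochberg adjustment over all 365. The test compares these libraries, not conditions, and its p-values rest on counting error. No let-7 gene differed at least 2-fold with an adjusted p under 0.05, against 12 (3.29%) of all genes tested. Of the 82 genes of at least 1000 CPM, which include 6 let-7 genes, 0 did. Without a minimum fold, 8 of 10 let-7 genes passed, against 46.3% of all tested genes. Of these, 3 were higher and 5 lower in replicate 2, against 26% and 20.3% of all tested genes. Among the 82 genes of at least 1000 CPM, where counting error is small, 33 were higher, 32 lower and 17 did not pass. With an unadjusted p under 0.05 there were 8 let-7 genes, 190 of the 365 tested genes and 70 of the 82 genes of at least 1000 CPM. The median log2 ratio of replicate 2 over replicate 1 was -0.029 for the let-7 genes and 0.018 for all tested genes, and the median absolute log2 ratio 0.16 and 0.21.

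Mirlet7b was 1.26-fold higher in replicate 2, a log2 ratio of 0.33 (exact interval 0.31 to 0.36; adjusted p = 4.79e-127). Mirlet7d was 1.23-fold lower in replicate 2, with a log2 ratio of -0.30 (-0.32 to -0.29) and an adjusted p too small for the computer to represent. Mirlet7i was 1.07-fold higher (adjusted p = 2.19e-187) and Mirlet7g 1.07-fold lower in replicate 2 (adjusted p = 2.74e-176) by the same exact binomial test, so the 2 highest let-7 genes differed in opposite directions. Mir98 was 1.04-fold lower (adjusted p = 3.18e-08). Mirlet7a-1 was 1.20-fold lower (adjusted p = 0.000888), Mirlet7a-2 1.18-fold lower (adjusted p = 0.0031) and Mirlet7c-1 1.17-fold higher in replicate 2 (adjusted p = 0.0121), also by the exact binomial test.

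2 genes did not pass the exact binomial test. Mirlet7c-2 had a log2 ratio of 0.091 (-0.084 to 0.27; adjusted p = 0.445) and Mirlet7f-2 of 0.0051 (-0.028 to 0.038; adjusted p = 0.851). The sign for Mirlet7f-2 was negative with total-count scaling, with DESeq2 size factors and in the unstranded column. At the Spaca6 cluster, the log2 ratio was -0.36 for Mir99b, -0.056 for Mir125a and 0.051 for the opposite-strand counts at Mirlet7e. In the chromosome 13 cluster, Mirlet7d and Mirlet7a-1 were both lower in replicate 2, and the intervals of their ratio overlapped between the libraries. The opposite-strand counts at Mirlet7f-1, in the same cluster, had a log2 ratio of -0.075 (-0.22 to 0.066). The intervals of Mirlet7d over these counts did not overlap between the libraries.

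**Figure D4:**
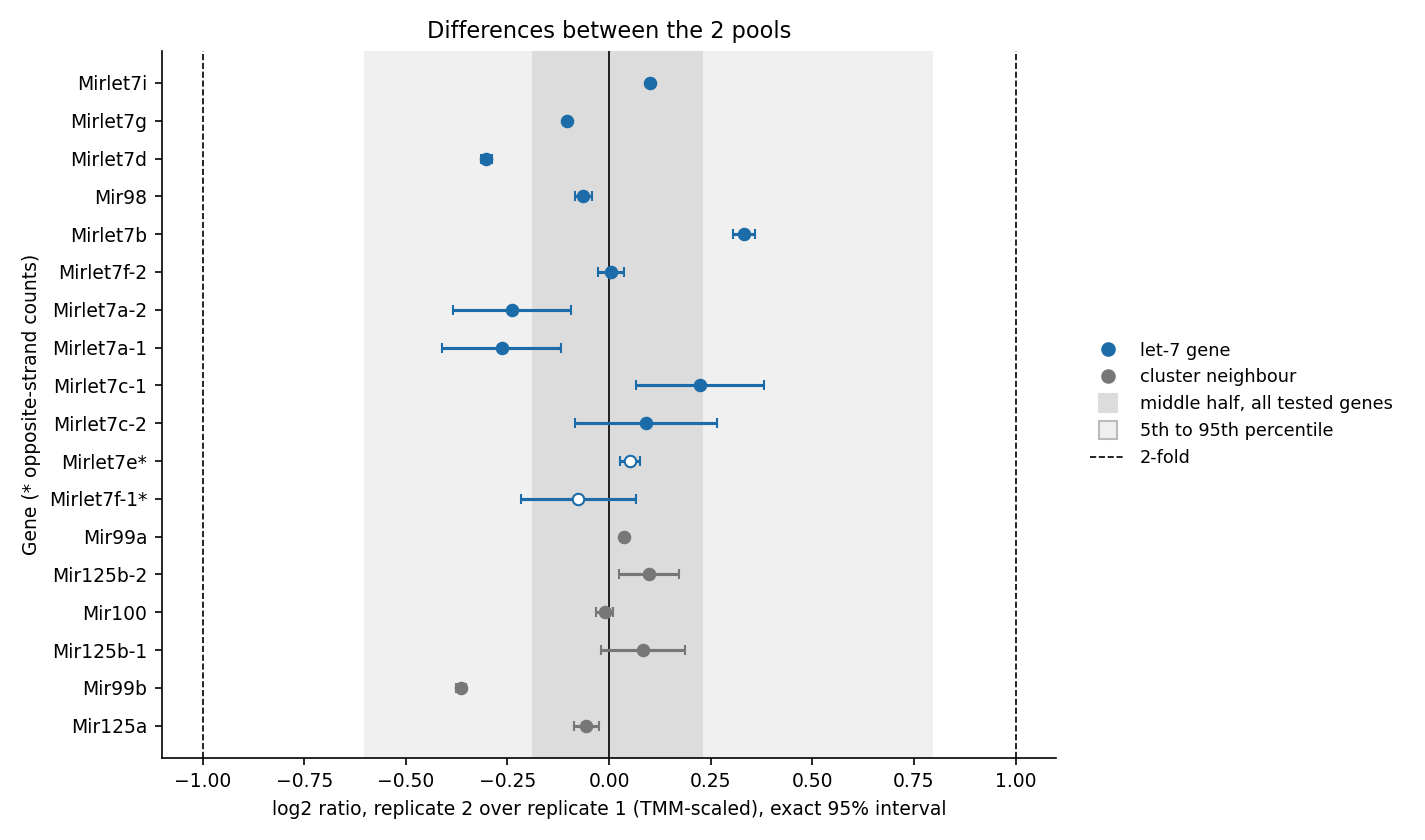
Log2 ratio of replicate 2 over replicate 1 (TMM-scaled counts) with exact 95% intervals for let-7 genes (blue; open, opposite-strand counts) and their cluster neighbours (grey); bands show all 365 tested genes and dashed lines a 2-fold difference. The let-7 genes lie between -0.30 (Mirlet7d) and 0.33 (Mirlet7b).

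Markers of cell types were compared between the same pools. Of 14 tested markers, 6 were higher and 2 lower in replicate 2 without a minimum fold, where 26% and 20.3% of all tested genes were, and 1, the skeletal muscle miRNA Mir206, passed at 2-fold (2.08-fold higher). In replicates 1 and 2, the 3 erythroid markers summed to 2118 and 1805 CPM and the 3 leukocyte markers to 586 and 717 CPM. The endothelial miRNA Mir126a stood at 85876 and 84222 CPM, and the 2 smooth muscle markers summed to 97337 and 98086 CPM. Their part in the let-7 ratios was not tested.

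For scale, 2 other families of several genes were set beside let-7. The miR-30 family held 5.25% and 5.71% of sense counts over 6 genes, and the miR-26 family 3.13% and 3.45% over 3 genes. By these counts, let-7 held more than either in each library. In both families the copies with a shared mature sequence were below most others: Mir30c-1 and Mir30c-2 stood at 95.7 and 48.6 mean CPM and Mir26a-1 and Mir26a-2 at 6.02 and 30.4, against 269 for Mir30b, 28556 for Mir30e and 32861 for Mir26b. The shares of let-7 and of these families leave out reads matching several places, so their order with those reads included is not known. Without a minimum fold, 5 of 6 miR-30 genes and 2 of 3 miR-26 genes were higher in replicate 2 and 0 were lower. Of all tested genes, 26% were higher and 20.3% lower. The 6 miR-99, miR-100 and miR-125 genes beside let-7 held 8.47% and 8.09% of sense counts, again without reads matching several places. Of these 6 genes, 2 were higher in replicate 2, 2 lower and 2 did not pass, and all tested genes also differed in both directions, as given above. Whether the families differed in this was not tested.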

How the data were processed

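The tables deposited by the authors hold whole-number counts for each listed miRNA gene, not normalized. The accompanying lists of files name build mm10 and annotation M4; aligner, counter and trimming are not given in the sources used here. A table had 3 count columns, for either strand and for each strand. Its first 4 lines (unmapped, several places, no feature, ambiguous) name no gene, stayed out of all totals and made up 54.9% and 51.7% of reads. Of the strand-specific columns, the one holding more gene counts in both libraries was taken as sense. Depth was 6473482 and 5841568 sense counts, and 0 counts allow up to 3 counts.

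Symbols, coordinates and hosts came from GENCODE M21 (1894 of 1973 identifiers matched), and sequences from RefSeq GRCm38.p6. Library sizes were scaled by TMM (edgeR 4.0.16, R 4.3.3). With 1 group, edgeR's quasi-likelihood test had no contrast, so the exact binomial test (scipy 1.17.1, checked on simulated data) was used. The simulated counts held counting error only, so the check does not cover other spread between pools. Ratios of genes carry exact Clopper-Pearson intervals. Alternatives were DESeq2 1.42.0 size factors, total-count scaling, no filter, no minimum fold, the unstranded column, other denominators and leaving out each replicate. Named genes were all 10 let-7 genes, their cluster and rank neighbours, genes with the let-7 seed, Mir202, the miR-30 and miR-26 genes and the markers; Gm25927, Gm24111 and Mir7j were named after their values were seen. Mir9-1, on the marker list, was not analysed here; Mir486a on that list was read as Mir486, its RefSeq symbol. The loop of 1 let-7 hairpin is not reported here. Members and lists were chosen with earlier results of these data known.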

Additional observations from a re-analysis of the deposited data

Results flagged for a closer look

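Counts stood on the strand opposite to a listed gene at 3 places of the let-7 family, in a column that the levels above do not use, and above the 3 counts that a count of 0 allows. At Gm25927, opposite which Mirlet7e lies, there were 28520 opposite-strand counts in replicate 1 and 26199 in replicate 2. At Gm24111, opposite which Mirlet7f-1 lies, there were 896 and 754. At Mirlet7b itself there were 19 and 10, against 20623 and 23030 sense counts.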

How the results depend on the processing

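The let-7 share, 13.6% in the sense column, was 12.8% in the unstranded column, 15.1% without the most abundant gene in the total, 8.01% with reads matching several places in the total and 14.0% with the opposite-strand counts at Mirlet7e and Mirlet7f-1 added, an alternative chosen after seeing the data. It was 13.4% to 13.8% with a replicate left out. The denominators differ by construction. The count of let-7 genes that differed between the pools stayed at 0 with DESeq2 size factors, total-count scaling, no count filter and the unstranded column, and was 8 with no minimum fold. Over all tested genes the count rose from 12 to 22 with no count filter, when 725 genes were tested, and to 169 with no minimum fold. The log2 ratio of Mirlet7f-2, 0.0051, was -0.013 with DESeq2 size factors, -0.020 with total-count scaling and -0.0038 in the unstranded column; it passed the test in none of these, and the cause was not tested. The 6 genes at or over 1000 CPM were 6 under every alternative tried, and the 6 of 7 ratios of clustered genes at least 2-fold apart were 6 or 7. No paired analysis was possible because the labels give a single group. With 2 libraries, the spread between pools is poorly known. Reads matching several places limit the levels of Mirlet7a-1, Mirlet7a-2, Mirlet7c-1, Mirlet7c-2 and Mirlet7f-2, and so all 7 ratios of clustered genes.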
